A study of Mus musculus with 6 samples.

Results

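The genes described here encode subunits of the ionotropic glutamate receptors, and they were set against AGO2 target peaks from cortex of mice at postnatal day 14. The 10 genes were the NMDA receptor genes Grin1, Grin2a, Grin2b and Grin3a, the AMPA receptor genes Gria1, Gria2, Gria3 and Gria4, and the kainate receptor genes Grik2 and Grik3. A peak was counted for a gene when its midpoint lay in the gene's span on mm10. Of the 2197 deposited peaks, 19 met this rule, and they fell in 6 of the 10 genes.

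The mice were VGLUT2-Cre;Spy3-AGO2, a Cre driver with a conditional allele that tags AGO2, and all 6 libraries share this genotype; no group without the tag was analysed here. AGO2 is the Argonaute protein that holds a microRNA (miRNA) together with the RNA it pairs with, and the tag binds SpyCatcher3 on a resin. The libraries form 3 groups of 2, namely AGO2-bound miRNA, AGO2-bound target and whole-lysate input, and the target side is 1 list of peaks for the series. The list gives position and strand, with no value for a single target or input library, so no peak result has a replicate spread or a test.

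Pyramidal neurons, which are excitatory cells with long axons, are the cell type given by the labels. The tagged protein was pulled from whole cortex, and the Cre driver alone sets which cells carry it. Of 8 markers of glutamatergic neurons 5 had a peak, with none in Slc17a6, Neurod2 or Neurod6. Of 7 markers of GABAergic neurons 1 had a peak, and over all protein-coding genes 4.30% had one. Of 21 markers of glia and endothelium 4 had one, among them the astrocyte transporter gene Slc1a2 with 45 peaks. Their part in the receptor gene results was not tested.

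Ionotropic glutamate receptors are ligand-gated cation channels assembled from several subunits. AMPA receptors carry most of the fast excitatory current at cortical synapses, NMDA receptors pass calcium when glutamate and depolarisation coincide, and kainate receptors act on both sides of the synapse. As background, the NMDA subunits GluN2B (Grin2b) and GluN3A (Grin3a) are prominent early in postnatal life, while GluN2A (Grin2a) rises as synapses mature. miRNAs act mostly on the 3′ untranslated regions of messenger RNAs, where AGO2 pairs the seed of the miRNA with its target.

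Several miRNAs are reported to act on these subunits, by general knowledge: miR-125b-5p and miR-19a-3p on Grin2a, miR-539-5p on Grin2b, and miR-223-3p on both Grin2b and Gria2. For Gria2 the list also held miR-124-3p, miR-30b-5p, miR-181a-5p and miR-186-5p, and for Gria1 it held miR-137-3p, miR-501-3p and miR-92a-3p. The mature sequences of 9 of these 11 miRNAs are printed from RefSeq (GRCm38.p6), 5′ to 3′, because their seeds are what would pair with a receptor transcript; bases 2 to 8, the seed, are in capitals.

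miR-125b-5p: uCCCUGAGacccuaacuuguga
miR-19a-3p: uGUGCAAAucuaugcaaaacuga
miR-539-5p: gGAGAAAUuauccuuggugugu
miR-223-3p: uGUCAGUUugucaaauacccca
miR-181a-5p: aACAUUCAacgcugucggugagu
miR-186-5p: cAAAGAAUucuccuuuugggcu
miR-137-3p: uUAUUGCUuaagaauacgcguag
miR-501-3p: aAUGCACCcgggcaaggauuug
miR-92a-3p: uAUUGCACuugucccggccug

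The 9 miRNAs have 9 different seeds. miR-125b-5p is encoded at chr9:41581940-41581961 and chr16:77646279-77646300 (both plus strand), and miR-181a-5p at chr1:137966468-137966490 and chr2:38852741-38852763 (both plus strand). miR-539-5p lies at chr12:109728136-109728157, miR-186-5p at chr3:157544285-157544306 and miR-137-3p at chr3:118433901-118433923, each on the plus strand. Peak sequences were not read, so no peak is assigned to a miRNA here.

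NMDA receptor genes held most of the receptor peaks. Grin2b had 7 peaks, Grin2a had 4 and Grin1, which encodes the GluN1 subunit present in every NMDA receptor, had 2, so that 13 of the 19 peaks lay in NMDA receptor genes. The AMPA receptor genes held 5 peaks, 3 in Gria2 and 2 in Gria3. Among the kainate receptor genes, Grik3 had 1 peak. Grin3a, Gria1, Gria4 and Grik2 had 0 peaks each, and no member had a further peak within 20 kb outside its span on either strand.

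**Figure D1:**
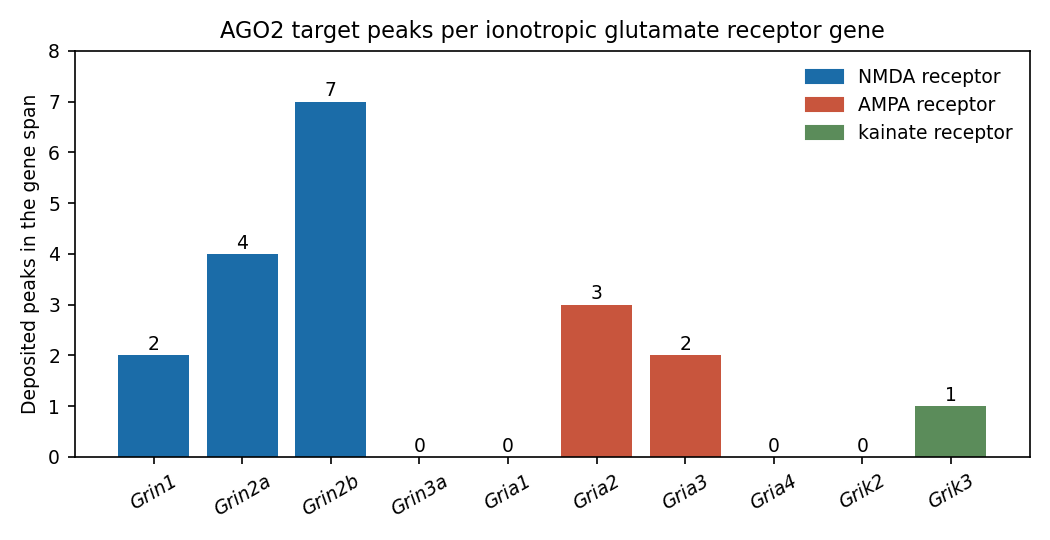
Number of deposited AGO2 target peaks (vertical axis) with their midpoint in the span of each of the 10 receptor genes (horizontal axis), coloured by receptor class. Grin2b leads with 7 peaks, followed by Grin2a with 4 and Gria2 with 3, while Grin3a, Gria1, Gria4 and Grik2 stand at 0.

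These counts stand beside a background in which few genes carried a peak. Of 21887 protein-coding genes, 941 (4.30%) had at least 1 peak, against 6 of the 10 receptor genes. At least 2 peaks were found in 1.37% of protein-coding genes and in 5 of the 10 receptor genes. Receptor genes are long, from 28.0 to 696 kb, and long genes carried peaks more often. Among protein-coding genes at least as long as Grin1, the shortest receptor gene, 7.92% had a peak. Among those of at least 100 kb, a class that holds 9 of the 10 receptor genes, 13.8% had a peak and 4.53% had at least 2, against 5 and 4 of the 9. The receptor genes were chosen with earlier results in view and expression was not measured here, so no test was made of this difference.

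Grin2b encodes GluN2B, the glutamate-binding subunit that gives NMDA receptors slow kinetics and a long intracellular tail that binds CaMKII. Its span is chr6:135713221-136173615, and all 7 peaks lay on the minus strand within the last 19.0 kb. Read from the end of the span inwards, the peaks were chr6:135713314-135713346 (33 nt wide), chr6:135713403-135713447 (45 nt) and chr6:135715375-135715504 (130 nt). They were followed by chr6:135721301-135721366 (66 nt), chr6:135727138-135727177 (40 nt), chr6:135729658-135729708 (51 nt) and chr6:135732149-135732254 (106 nt). The first pair lay 109 and 204 nt from the end, and the remaining 5 were spread from 2.22 to 19.0 kb from it. The Grin2b peaks were therefore spread over the last 19.0 kb and did not gather at one place. They did not reach through the whole last 10% of the span, which is 46.0 kb long. Together they covered 471 bases, with a median width of 51 nt.

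Few genes held as many peaks as Grin2b. Of the 941 genes with a peak, 33 had at least 7, and of protein-coding genes of at least 100 kb, 0.494% did. The distance from the first to the last Grin2b peak, 18.9 kb, was exceeded in 4 of the 10 genes with exactly 7 peaks, whose median was 16.2 kb. Among those genes, the position along the span was most like that of Grin2b (median peak at 98.2% of the span) in Dclk1 at 98.3%, Ndrg4 at 99.2% and Arf3 at 96.9%. This likeness rests on 1 peak list and on the median position alone.

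Grin2a encodes GluN2A, the subunit that gives NMDA receptors faster kinetics and becomes prominent as cortical synapses mature. Its span is chr16:9567901-9996083, close in length to that of Grin2b (428 against 460 kb). On the minus strand it had peaks at chr16:9567918-9568009 (92 nt wide), chr16:9573216-9573279 (64 nt) and chr16:9573311-9573346 (36 nt). The first of these lay 62.5 nt from the end of the span, measured from its midpoint, and the others 5.35 and 5.43 kb from it. The fourth Grin2a peak stood apart from these. It lay on the plus strand at chr16:9753542-9753566, was 25 nt wide, the narrowest of the 19, and sat 43.4% of the way along the span in its own direction. By the same likeness, the genes with 4 peaks nearest to Grin2a in median position (98.7% of the span) were Kif5c at 98.9%, Stmn2 at 98.4% and Gsk3b at 98.3%.

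Set side by side, the subunit prominent early in life had more peaks and a longer stretch of them than the later one. Grin2b had 7 minus-strand peaks over 18.9 kb, covering 471 bases, and Grin2a had 3 over 5.37 kb; with the plus-strand peak, the Grin2a peaks covered 217 bases. Median widths were 51 nt in Grin2b and 50 nt over the 4 Grin2a peaks, which include the plus-strand peak of 25 nt. The 3 minus-strand Grin2a peaks were 92, 64 and 36 nt wide. Both genes had a peak centred within 250 nt of the end of the span. The third subunit gene of this comparison, Grin3a (chr4:49661611-49846023), encodes the glycine-binding GluN3A of juvenile synapses and had 0 peaks. The 2 genes of early prominence thus stood at opposite ends of the count, with 7 and 0 peaks. No expression values and no replicate values were used here, and these differences have no test.

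**Figure D2:**
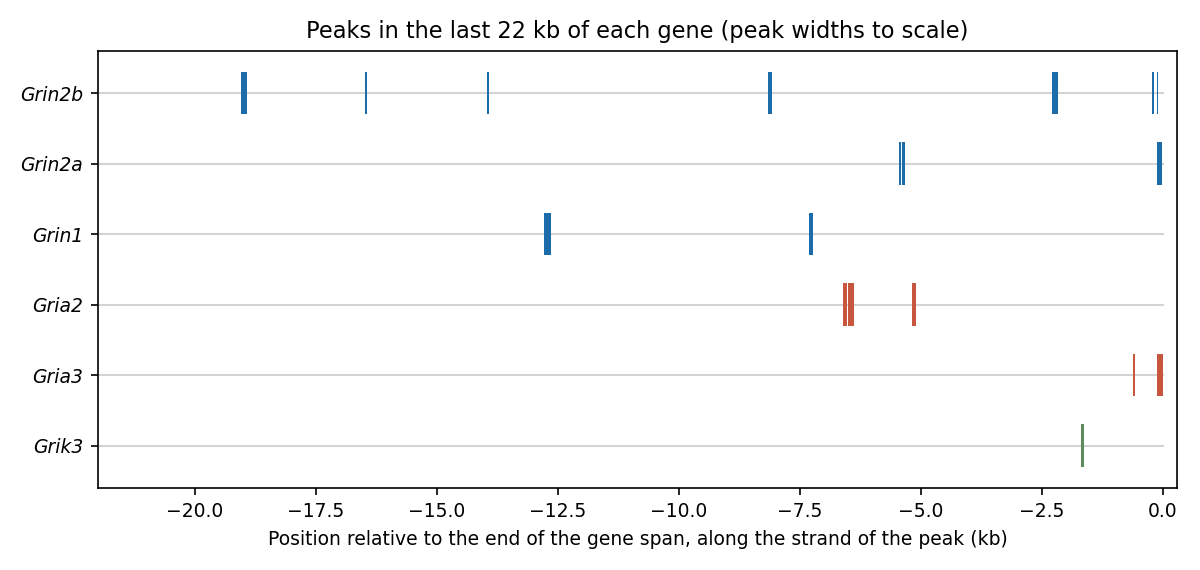
Position of the peaks of the 6 receptor genes with a peak, in kb from the end of the gene span in the direction of the peak's strand; bars are drawn to scale in width, 1 row per gene. Grin2b peaks run from 109 nt to 19.0 kb from the end, Gria2 peaks lie between 5.14 and 6.57 kb, and the plus-strand Grin2a peak, 243 kb from the end, lies outside the 22 kb shown.

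Of the 6 receptor genes with a peak, Grin1 was the one with 0 peaks in the last 10% of its span. The gene occupies chr2:25291177-25319187, and its peaks were chr2:25298395-25298477 (83 nt wide) and chr2:25303810-25303950 (141 nt, the widest of the 19). They sat 74.1% and 54.6% of the way along the span, 7.26 and 12.7 kb from its end. Both were on the minus strand, the strand that RefSeq gives for Grin1. The first also lay in the span of Grin1os, a lncRNA gene on the plus strand, so counting only peaks inside a single gene span left Grin1 with 1 peak.

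Gria2 encodes GluA2, the AMPA receptor subunit whose edited form keeps the channel from passing calcium. Its span is chr3:80681450-80804227, and its peaks were chr3:80686543-80686633 (91 nt wide), chr3:80687828-80687949 (122 nt) and chr3:80687979-80688058 (80 nt). All 3 were on the minus strand, the strand of the gene. They lay 5.14, 6.44 and 6.57 kb from the end, with 29 nt between the last pair. None was centred within 250 nt of the end, unlike the first peaks of Grin2a, Grin2b and Gria3. Genes that also had 3 peaks at a like median position (94.8% of the span for Gria2) included Tubb4a at 94.9% and Cst3 at 94.5%.

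Gria3, which encodes GluA3, occupies chrX:41400819-41678601. Its plus-strand peaks were chrX:41677984-41678030 (47 nt wide) and chrX:41678493-41678597 (105 nt), centred 594 and 56 nt from the end. Both Gria3 peaks were thus terminal, where those of Gria2 lay several kb upstream. Gria1 (chr11:57011571-57330244) encodes GluA1, the subunit tied to activity-dependent delivery of AMPA receptors, and Gria4 (chr9:4417893-4796234) encodes GluA4, which is found mainly in interneurons and in early development; each had 0 peaks. A gene with no listed peak is not shown to be free of AGO2, since the rule by which peaks entered the list is not given in the sources used here.

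Grik3 encodes the kainate receptor subunit GluK3. Its peak, chr4:125712490-125712542 (53 nt wide), lay on the plus strand, the strand of the gene, 1.66 kb from the end of the span chr4:125490259-125714173. Grik2 (chr10:49093680-49790161), which encodes GluK2 and has the longest span of the 10 at 696 kb, had 0 peaks.

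Over all members, 16 of the 19 peaks lay in the last 10% of the span by their midpoints, in the direction of the peak's own strand (84.2%, with an exact Clopper-Pearson 95% interval of 60.4 to 96.6). The same share was 65.2% over the 1606 peaks of 935 other protein-coding genes, a value inside that interval. The interval covers counting error only and treats peaks of one gene as separate, although 7 of the 19 share Grin2b. In absolute distance, the median receptor peak lay 5.43 kb from the end (5.39 kb without Grin2b) against 1.65 kb for the other genes. The other genes were not matched for length in any of these comparisons. Of all 941 protein-coding genes with a peak, 335 spanned at least 100 kb, against 5 of the 6 receptor genes with one. In the last 10 kb lay 73.7% of receptor peaks against 78.2% of the others; without Grin2b the receptor share was 83.3%, above the others, so the direction of this difference rests on that gene. The last 10% of the span is 42.8 kb in Grin2a and 46.0 kb in Grin2b but 2.80 kb in Grin1, and transcript models were not used here, so neither measure is a share of exons or untranslated regions.

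The width of receptor peaks ran from 25 to 141 nt, the median was 66 nt, and together they covered 1410 bases. The median over peaks of other protein-coding genes was 57 nt, with the middle 50% of peaks between 38 and 89 nt. Peaks of at least 100 nt made up 5 of the 19 receptor peaks, 2 in Grin2b and 1 each in Grin1, Gria2 and Gria3, against 19.1% over the other genes. Peaks of up to 30 nt made up 1 of the 19, that on the plus strand in Grin2a, against 17.6%. Within Grin2b alone, width ran from 33 to 130 nt. Without Grin2b the median receptor width was 81.5 nt.

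**Figure D3:**
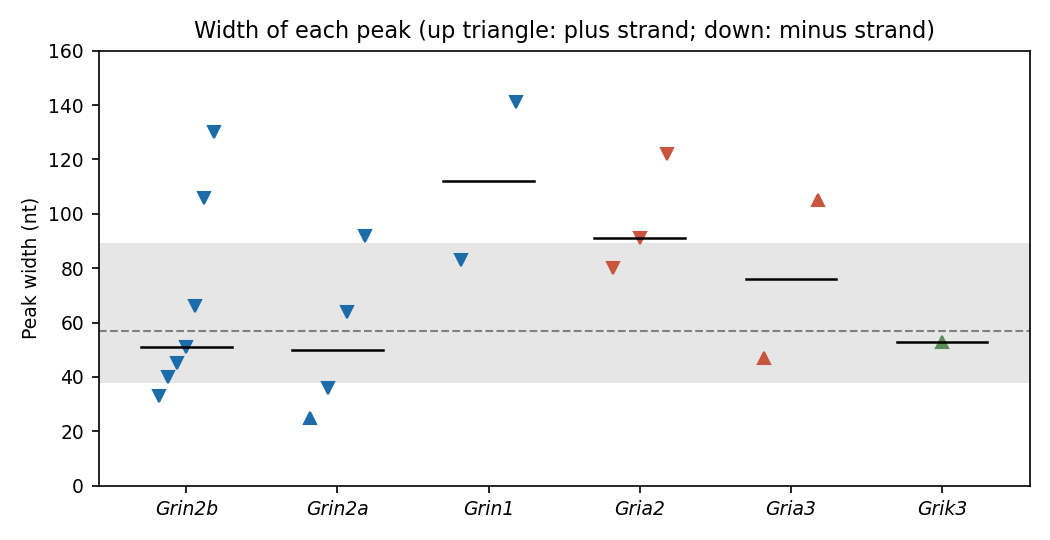
Width in nt of each of the 19 receptor peaks (triangles, pointing up for the plus and down for the minus strand), by gene, with a black line at the median of each gene. The dashed line and grey band are the median (57 nt) and the middle 50% (38 to 89 nt) of peaks in other protein-coding genes; Grin2b spans 33 to 130 nt, and the narrowest point is the plus-strand Grin2a peak.

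By strand, 15 receptor peaks were on the minus and 4 on the plus strand. RefSeq's promoter table gave a strand for 5 of the 10 genes, 3 of which had peaks, and all 6 peaks of those 3 lay on the strand of the gene. For Grin2a, Grin2b and Gria3 no gene strand was used.

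The names of the peaks hold a further measure. Each carries a number, and along every chromosome and strand these numbers rose with position without exception, up to 14469, so that 15.2% of the numbers were in the list. What the absent numbers stood for is not given in the sources used here. Between the first and the last Grin2b peak the numbering ran through 46 numbers, both ends counted, of which 39 were absent. The 9 other genes with 7 peaks had 7 to 56 absent numbers with a median of 19, and 8 of them had fewer than Grin2b. In Gria2 and in Grin1 the peaks carried consecutive numbers, with none absent. Grin2a had 3 absent of 6 on the minus strand, and Gria3 had 2 absent of 4. In the Grin2b stretch 15.2% of the numbers were listed, the same share as over the whole list. The whole-list share is not a like measure, since a gene's stretch starts and ends on listed peaks. In the other genes with 7 peaks the listed share ran from 11.1% in Map1b to 50% in Ndrg4. Only Map1b had a lower share than Grin2b. Whether the absent numbers set Grin2b apart was not tested. The Gria2 stretch, with none absent, covers 1.43 kb against 18.9 kb in Grin2b.

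**Figure D4:**
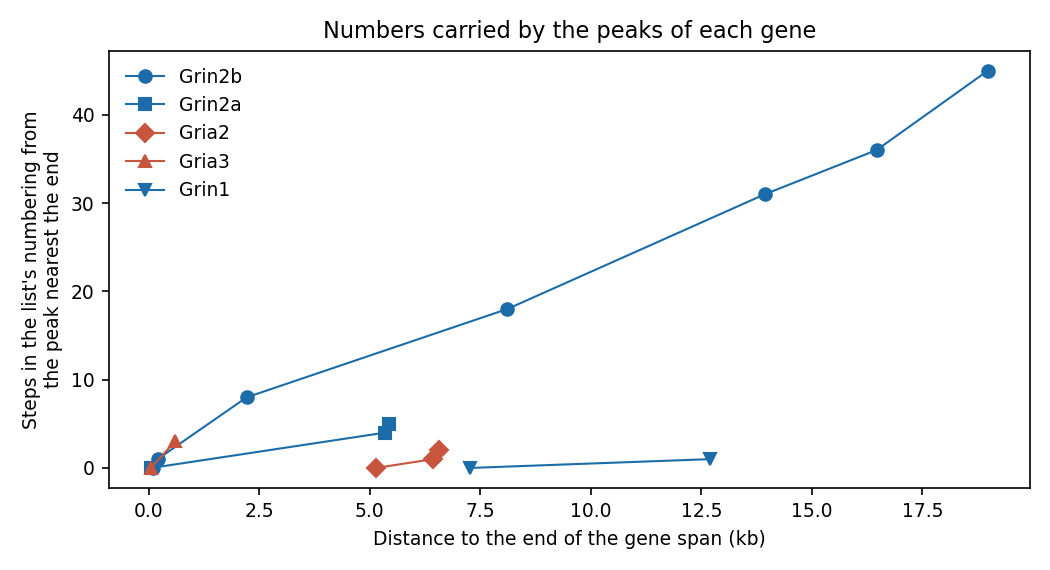
Steps in the list's numbering from the listed peak nearest the end of the span (vertical axis) against distance to the end in kb (horizontal axis), for the strand that holds most peaks of each gene; points are listed peaks. Grin2b climbs to 45 steps over 18.9 kb, which makes 46 numbers with both ends counted, while Gria2 and Grin1 show consecutive numbers.

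Other genes of glutamate signalling were counted the same way. Of the 8 remaining ionotropic subunit genes, Grin3b and Grik1 had 1 peak each, and the others, among them Grin2c, Grin2d, Grik4, Grik5 and Grid1, had 0. The Grin3b peak (chr10:79977121-79977183) lay on the minus strand, opposite to the gene, and also in the span of its neighbour Tmem259. The Grik1 peak (chr16:88077317-88077338) was 22 nt wide and lay in the middle of the span. All 8 metabotropic glutamate receptor genes had 0 peaks. Over all protein-coding genes 4.30% had a peak, and 13.8% of those of at least 100 kb did. At such shares, 0 of 8 does not set the metabotropic genes apart. Of 16 genes for auxiliary subunits, the partners that control receptor trafficking and gating, Cacng2 and Cacng7 had 2 peaks each. Of 18 genes for scaffold and trafficking proteins, 9 had a peak, among them Shank1 with 5, Dlg2 with 3, and Dlg4, which encodes PSD-95, and Dlgap2 with 2 each.

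The GABA-A receptor, the inhibitory counterpart, gave a share of genes with peaks below that of the ionotropic glutamate receptor genes. Of its 16 subunit genes, 3 had a peak (18.8%), among them Gabrb2 with 5 and Gabrb1 with 1. That share is above the 4.30% of all protein-coding genes but near the 13.8% of those of at least 100 kb. Against the latter, 3 of 16 does not set the GABA-A genes apart. The GABA-A share stands against 6 of the 10 glutamate receptor genes, or 8 of all 18 ionotropic glutamate subunit genes. Those 8 include Grin3b, whose only peak lay opposite to the gene, and Grik1, whose only peak was 22 nt wide at mid-span. The difference between these shares was not tested, because the 10 genes were chosen and the lists differ in how completely they cover their family. All 5 Gabrb2 peaks were in the last 10% of the span, as were all 7 of Grin2b.

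The miRNA libraries give the AGO2-bound counts of the miRNAs listed for these genes by general knowledge. Replicate 1 had 66854 and replicate 2 had 75658 counts over 1978 listed miRNAs. Whether the replicates are separate animals is not stated, and the spread between them may therefore be technical only. Together the 11 miRNAs made up 15.3% of the counts in replicate 1 and 14.9% in replicate 2 (15.1% ± 0.312, SD, n = 2), most of it from miR-125b-5p and miR-124-3p.

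For Grin2a, miR-125b-5p had 4458 and 4690 counts, or 6.67% and 6.20% of the libraries. Listed miRNAs with the same seed, among them miR-125a-5p, brought this to 8.49% ± 0.449 (SD, n = 2). miR-19a-3p had 5 and 3 counts, and with miR-19b-3p, which has the same seed, the share was 0.127% ± 0.00616 (SD, n = 2).

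For Grin2b, the listed miRNAs had low counts. miR-539-5p had 61 and 64 counts, or 0.0879% ± 0.00470 (SD, n = 2). miR-223-3p, a miRNA of myeloid cells, had 0 counts in both libraries. With 0 counts, an approximate 95% upper limit is 3 counts. That is 0.00449% of replicate 1 and 0.00397% of replicate 2, counting error only. These shares describe the miRNAs listed and were not set against the number of peaks, since no seed match was examined.

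For Gria2, miR-124-3p had 3684 and 4258 counts (5.57% ± 0.0830), miR-30b-5p 692 and 805 (1.05% ± 0.0204), miR-181a-5p 660 and 693 (0.952% ± 0.0504) and miR-186-5p 182 and 190 (0.262% ± 0.0149; SD, n = 2 each). The order of miR-124-3p, miR-30b-5p and miR-186-5p was the same in both libraries, with gaps many times the SD, and miR-30b-5p and miR-181a-5p were closer, 1.04% against 0.987% in replicate 1 and 1.06% against 0.916% in replicate 2. For Gria1, which had 0 peaks, miR-137-3p had 465 and 520 counts (0.691% ± 0.00583), while miR-501-3p had 15 and 12 and miR-92a-3p 14 and 15. The order of the last pair was not resolved, since it differed between the libraries.

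**Figure D5:**
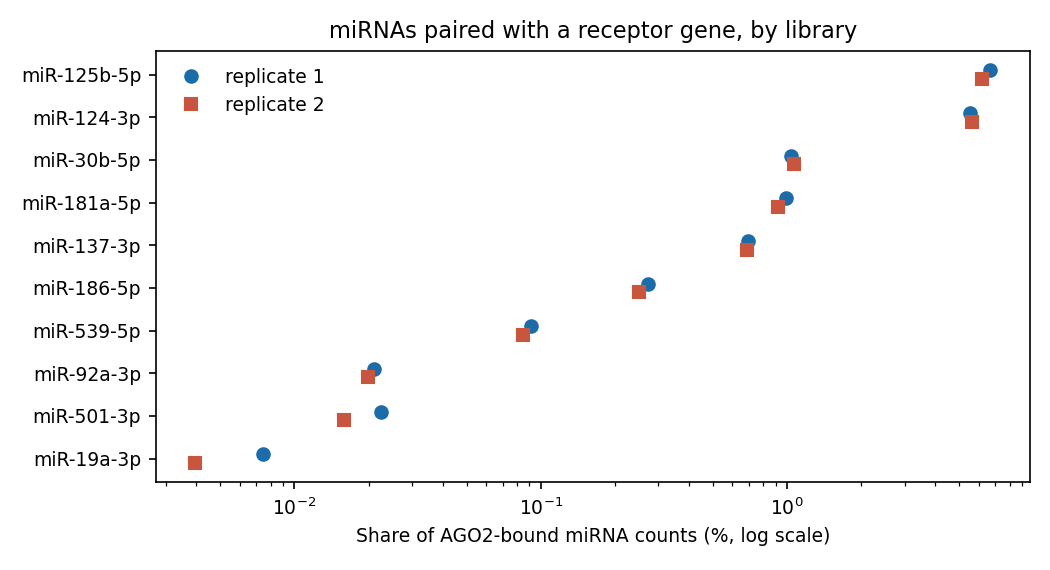
Share of AGO2-bound miRNA counts in percent (horizontal axis, log scale), with 1 point for each of the 2 libraries. The miRNAs shown are those paired with a receptor gene in the list from general knowledge, not by base pairing seen in these data. miR-125b-5p and miR-124-3p lie above 5% in both libraries, and miR-19a-3p is lowest; miR-223-3p, at 0 counts, is not drawn.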

How the data were processed

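AGO2-bound RNA from cortex was sequenced by the submitters. Per the submitters' processing notes, the build was mm10 and the tools, whose roles are unstated, included STAR 2.5.2a, Bowtie2 2.4.2, cutadapt 2.10 and UMI-tools. How peaks were called, on which libraries and whether against input is not stated in these sources. The deposited score is 0 for all 2197 peaks and was not used. The miRNA counts are deposited raw counts per mature miRNA, and the name given to them says that duplicates were kept.

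Peaks were assigned by midpoint to RefSeq gene spans on GRCm38.p6, the assembly of mm10, and a peak inside a gene of a small noncoding RNA counted for that gene alone. Positions count from 1 and run along the strand of the peak. The code for assignment and position was checked on simulated peaks planted inside gene spans (400 of 400 recovered). This check left out the rule for small noncoding RNA genes and says nothing about the accuracy of the peaks. Shares of miRNA counts are over the library total. TMM factors came from edgeR 4.0.16. The planned search for seed matches was not run, because no genome sequence was used here. The text names all members, other subunits, up to 4 genes per list (ties included), all listed miRNAs and, for Grin2b, Grin2a and Gria2, 3 genes alike in peak number and median position. The members and lists were chosen with earlier results of these data known. Some genes that this rule names are left out of the text.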

Additional observations from a re-analysis of the deposited data

How the results depend on the processing

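The 19 receptor peaks became 18 when peaks under 30 nt, peaks in several spans, or peaks off the main strand of a gene were left out, and stayed 19 when any overlap with a span counted. Genes with a peak went from 6 to 5 when at least 2 peaks were asked for. The share in the last 10% of the span was 75% without Grin2b and 83.3% by gene. Grin1 kept 1 peak of 2 when a midpoint in 1 span only was asked for. The summed share of the 11 miRNAs rose from 15.1% to 17.4% with miR-128-3p out of the total, which follows from the smaller total; leaving out a library gave 14.9 to 15.3%. The main-strand, 100 kb and Grin2b alternatives were chosen after the data were seen. No paired analysis was possible because only the miRNA group has values per library. Precision is limited by a peak list without values for single libraries.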

Other observations

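Over other protein-coding genes with a strand in RefSeq's promoter table, 119 of 1084 peaks in a single span (11.0%) lay on the opposite strand, with a median width of 25 nt against 61 nt for peaks on the gene's strand, and 17 of the 119 lay in the last 10% of the span. The Grin3b peak, opposite to its gene, was 63 nt wide. The plus-strand Grin2a peak was 25 nt wide, and whether it is opposite to the gene was not settled here, since no gene strand was used for Grin2a. Of 294 other protein-coding genes with at least 2 peaks, 17 (5.78%) had peaks on both strands, as Grin2a did.

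Close neighbours occurred in Grin2b (56 nt apart), Grin2a (31 nt) and Gria2 (29 nt). Over the receptor genes 3 of 12 gaps between neighbouring peaks on the same strand were up to 100 nt, against 33.1% of 753 gaps in other genes. The median gap was 2184 nt in receptor genes and 334 nt in other genes; without Grin2b, which holds 6 of the 12 gaps, it was 828 nt. These measures were chosen after the data were seen and were not tested.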
